A study of Mus musculus with 12 samples.

Results

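The comparison set all 6 arrays from cultures without LIF against all 6 from cultures with LIF, in D3 cells, an established mouse embryonic stem cell line. It took in 12 of the 12 arrays of the study, with the presence of lithium and the replicate number (1 to 3) as covariates, so that the effect of LIF was averaged over both lithium states. The LIF-free arrays were 3 from LIF-free cultures and 3 from LIF-free plus lithium cultures. The LIF arrays were 3 from cultures with LIF at 1000 units per ml and 3 from cultures with LIF plus lithium. Lithium, a GSK3 inhibitor used to mimic a Wnt signal, was given at a concentration that the labels state as 50 nM. Lithium is usually used against GSK3 at millimolar concentrations, so at the dose as stated its action on GSK3 in these cultures was not tested. All cultures were kept for 7 days in stem cell medium with serum, and no genetic change is recorded for any of them. The labels call the numbered arrays biological replicates. The series' design text speaks of 3 independent experiments behind each replicate without saying whether material was pooled. The limma p-values below therefore rest on the spread left between these 12 arrays once LIF, lithium and replicate number are fitted.

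LIF is a cytokine of the interleukin-6 family. It binds the LIF receptor (Lifr) and its partner gp130 (Il6st), which activate the JAK kinases and through them the transcription factor STAT3. In mouse embryonic stem cells STAT3 turns on its own feedback inhibitor Socs3 and regulators of the naive pluripotent state such as Klf4 and Tfcp2l1, and with serum this signal holds the cells in self-renewal. Without LIF the cells leave the naive state for an epiblast-like state and then differentiate into several lineages. Averaging over both lithium states leaves 6 values per side, which gives more power for changes under 2-fold than a comparison of 3 against 3.

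Each value is a MAS5 signal, a linear brightness per probe set that has no absolute unit, and levels were not compared between genes. Tests covered probe sets whose mean log2 signal over the 12 arrays exceeded the 40th percentile, equal to a signal of 7.52, which kept 27022 of 45037. A gene near background in one group is tested only where the other group lifts that mean. Counts over the measured members of a list therefore lean toward calls where members are dim. Changes are LIF-free minus LIF on the log2 scale, so a negative value means lower without LIF. A probe set was called where the limma adjusted p was under 0.05, and the brightest kept probe set stood for each of 12737 genes. Stem cell identity markers were present in every array. The summed signal of 10 such markers was 10681 to 16395 in LIF-free arrays and 20645 to 30364 in LIF arrays. Dppa5a held the largest part, with medians of 6467 and 7247 in LIF-free and LIF arrays, of median sums of 13580 and 24113. Its groups overlapped. Of the 10 markers, 8 were called lower and 1, Lin28a, higher. Array quality moved with LIF: the 18S ribosomal RNA signal was 1440 ± 492 in LIF-free arrays and 606 ± 585 in LIF arrays (SD, n = 6 each), higher in 6 of 6 pairs of equal lithium state and number. The Gapdh 3 prime to 5 prime ratio was 0.773 ± 0.030 in LIF-free arrays and 0.824 ± 0.022 in LIF arrays (SD, n = 6 each), lower in 6 of 6 pairs. Both had an exact paired permutation p of 0.0313, the smallest that 64 arrangements allow, and 0.0781 adjusted over 5 measures. Their part in the results was not tested. RNA of each dish was measured in bulk, so fewer cells of a type and less RNA per cell cannot be told apart.

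The absence of LIF went with calls across much of what was measured, most of them for changes under 2-fold. limma called 9015 probe sets (33.4% of those tested), 4788 higher (17.7%) and 4227 lower (15.6%) in LIF-free arrays. By gene, 5077 of 12737 were called (39.9%), 2695 higher (21.2%) and 2382 lower (18.7%), and the median log2 change of all genes was 0.02. The balance of directions rested on the scaling between arrays. After each array was centred on its own median, 2813 probe sets were higher and 3261 lower (46.3% higher, against 53.1% as deposited). Centring moves every log2 change by the same amount, and it took the median over all tested probe sets from 0.017 to -0.058. The smallest log2 change of a called gene was 0.19 in size. That no call as deposited changed sign therefore says little about the scaling.

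Small changes made up most of the calls. Of the 5077 called genes, 3639 (71.7%) changed less than 2-fold, and 2175 of these (42.8% of the calls) changed less than 1.5-fold. In that smallest class 1049 genes were higher and 1126 lower without LIF. Between 1.5-fold and 2-fold there were 792 higher and 672 lower. From 2-fold to 4-fold the counts were 695 higher and 493 lower. At 4-fold or more there were 159 higher and 91 lower. The median absolute log2 change of a called gene was 0.66 and the smallest was 0.19. All 6 LIF-free minus LIF differences within a lithium state and number had one sign in 4776 genes (37.5%), and in 4252 of the 5077 called (83.8%). All 6 LIF-free values lay beyond all 6 LIF values in 2320 genes (18.2%), 1341 higher (10.5%) and 979 lower (7.69%).

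**Figure D1:**
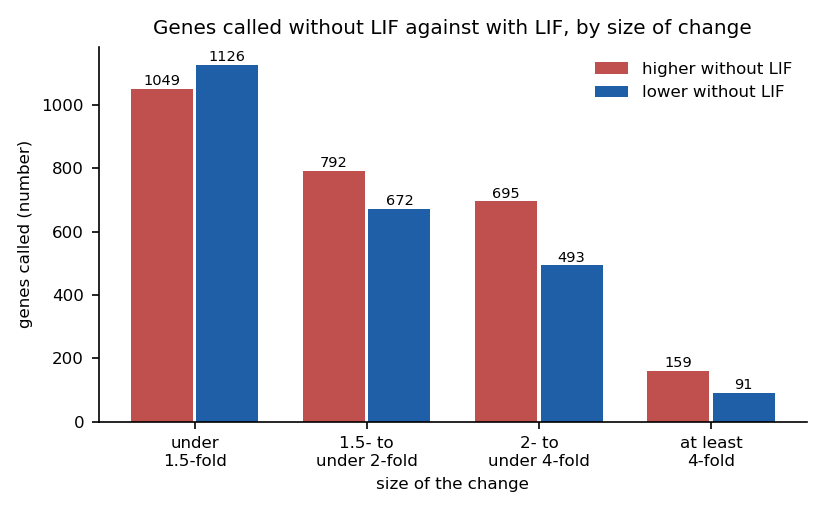
Number of called genes (vertical axis) in each class of fold change (horizontal axis), LIF-free against LIF, with separate bars for genes higher and lower without LIF. The smallest class, under 1.5-fold, holds 2175 of the 5077 called genes, and the class of at least 4-fold holds 250.

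A model with a mean per condition and the replicate number tested each lithium state on its own. It called 5938 probe sets with lithium (22% of those tested) and 5260 without (19.5%), and by gene 3404 and 3059, against 5077 over both. These comparisons share their arrays, so their overlap is a description only. Of the genes called over both states, 1103 (21.7%) were called in neither state alone. Of those, 1020 changed less than 2-fold, and their median absolute log2 change was 0.39. Another 244 genes were called in one state but not over both. No gene called over both states had opposite signs in them. The call rests on the average over both states, so it tends to leave such genes out.

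Components of the LIF receptor pathway showed no common direction. Of 22 measured, 4 were higher (18.2%), 4 lower (18.2%) and 14 not called, shares near those of all genes (21.2% and 18.7%). The median log2 change was -0.005. After median centring 2 were higher and 3 lower, and without the replicate number 3 and 2. Stat3 itself, the transcription factor of the pathway, had signals of 179 to 256 in LIF-free arrays (median 207), against 191 to 386 in LIF arrays (median 243). The groups overlapped, and Stat3 was not called (log2 change -0.23 ± 0.15 (SE, adjusted p = 0.273)). Il6st, the gp130 subunit, had signals of 140.0 to 189 in LIF-free arrays (median 169), against 154 to 197 in LIF arrays (median 173), again overlapping and not called (log2 change -0.10 ± 0.10 (SE, adjusted p = 0.487)).

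Lifr, the ligand-specific receptor subunit, fell by a little. It had 218 to 433 in LIF-free arrays (median 313), against 357 to 563 in LIF arrays (median 398). The groups overlapped, but the LIF-free value was lower in 6 of 6 pairs, with a log2 change of -0.46 ± 0.08 (SE, adjusted p = 0.000714). That call ended without the replicate number in the model (adjusted p = 0.0759). Ptpn11, the phosphatase SHP2 that links gp130 to the ERK pathway, rose 1.75-fold. It had 438 to 569 in LIF-free arrays (median 485), against 242 to 328 in LIF arrays (median 283). All LIF-free values lay above all LIF values (log2 change 0.81 ± 0.07 (SE, adjusted p = 1.47e-06)). Pias1, an inhibitor of STAT proteins, rose 1.62-fold (log2 change 0.70 ± 0.12 (SE, adjusted p = 0.00032)), also without overlap.

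Socs3, the feedback inhibitor that STAT3 induces, fell most of the pathway's 22 members. Its signals were 66.5 to 85.5 in LIF-free arrays (median 77.2), against 208 to 573 in LIF arrays (median 266). No values overlapped, and the LIF signal was 3.71 times the LIF-free signal (log2 change -1.89 ± 0.17 (SE, adjusted p = 1.31e-06)). One LIF array, replicate 3 without lithium, stood above the other LIF arrays at 573.

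Targets of LIF and STAT3 mostly fell. Of 22 measured, 12 were lower (54.5%, against 18.7% of all genes), 4 higher (18.2%, against 21.2%) and 6 not called. Their median log2 change was -0.44. The 4 higher ones were Fos, Myc, Cebpb and Spry2, which are named here after their values were seen. After median centring 1 was higher and 11 lower, and without the replicate number in the model 11 were lower and the other 11 not called. Klf4, a zinc finger factor of naive cells, had 252 to 389 in LIF-free arrays (median 345), against 1075 to 1947 in LIF arrays (median 1668). The highest LIF-free value was well under the lowest LIF value (log2 change -2.25 ± 0.08 (SE, adjusted p = 4.55e-10)). Klf4 had the smallest p of the genes named in the comparison.

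Icam1, a cell adhesion receptor, had 64.2 to 146 in LIF-free arrays (median 117), against 214 to 629 in LIF arrays (median 491), without overlap (log2 change -2.02 ± 0.12 (SE, adjusted p = 3.67e-08)). Tfcp2l1, a factor through which LIF acts on naive cells, had 165 to 231 in LIF-free arrays (median 207), against 526 to 713 in LIF arrays (median 587), again without overlap (log2 change -1.57 ± 0.11 (SE, adjusted p = 1.06e-07)). Sgk1, a serum-induced kinase, had 533 to 839.6 in LIF-free arrays (median 809), against 1362 to 2052 in LIF arrays (median 1615) (log2 change -1.09 ± 0.11 (SE, adjusted p = 4.2e-06)), and its groups did not overlap either. Tet2, an enzyme that oxidises methylated cytosine, fell with a log2 change of -1.63 ± 0.17 (SE, adjusted p = 3.85e-06).

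STAT dimers bind palindromes of the form TTCNNNGAA, which reads the same on both strands. RefSeq promoter windows, from 250 bases before to 50 after a gene's start, were found for 18 of the 22 measured targets. The motif was in 4 of their 24 windows (16.7%). It was in 8.30% of all 32851 windows in the table, 6.64% of those of tested genes, 5.57% of those of genes higher without LIF and 5.33% of those of genes lower without LIF. A match is a run of letters in the window, not a measured binding site, and its absence says only that these letters are not there. Windows of 3 called targets are shown to place the motif, in capitals, beside genes that fell. They are printed 5′ to 3′ along the gene's own strand.
Icam1 promoter, GRCm38.p6 chr9:21015690-21015989, plus strand: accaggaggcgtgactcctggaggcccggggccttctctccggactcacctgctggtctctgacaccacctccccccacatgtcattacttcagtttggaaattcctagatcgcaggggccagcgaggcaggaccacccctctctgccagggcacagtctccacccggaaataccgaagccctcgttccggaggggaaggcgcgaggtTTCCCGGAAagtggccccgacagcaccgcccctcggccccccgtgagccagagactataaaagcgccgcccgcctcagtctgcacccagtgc
Socs3 promoter, GRCm38.p6 chr11:117969317-117969616, minus strand: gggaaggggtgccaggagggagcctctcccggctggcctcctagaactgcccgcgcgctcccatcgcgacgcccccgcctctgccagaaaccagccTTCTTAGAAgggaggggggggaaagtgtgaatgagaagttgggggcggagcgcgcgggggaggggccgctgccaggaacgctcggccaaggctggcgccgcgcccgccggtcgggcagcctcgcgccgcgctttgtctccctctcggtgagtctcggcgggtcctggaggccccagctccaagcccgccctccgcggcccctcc
Sgk1 promoter, GRCm38.p6 chr10:21881934-21882233, plus strand: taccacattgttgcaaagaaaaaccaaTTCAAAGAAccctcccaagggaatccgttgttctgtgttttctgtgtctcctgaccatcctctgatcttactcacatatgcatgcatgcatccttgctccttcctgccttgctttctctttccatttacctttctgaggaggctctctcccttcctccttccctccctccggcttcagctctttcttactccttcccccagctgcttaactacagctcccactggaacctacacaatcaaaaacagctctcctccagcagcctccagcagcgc
The first motif base lay 42 bases before the start of Icam1, 154 before that of Socs3 and 223 before that of Sgk1.

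The pluripotency network fell almost as a whole. Of 37 measured members, 31 were lower, 1 was higher and 5 were not called, beside 18.7% of all genes lower. The median log2 change was -1.19, and in 28 members all LIF-free values lay under all LIF values, as in 7.69% of all genes. Pou5f1, which encodes Oct4, had 509 to 1014 in LIF-free arrays (median 742), against 1371 to 3334 in LIF arrays (median 2105). The LIF-free values were all lower (log2 change -1.48 ± 0.10 (SE, adjusted p = 1.22e-07)). Sox2, the partner of Oct4 on DNA, had 799.7 to 1912 in LIF-free arrays (median 1352), against 2176 to 3321 in LIF arrays (median 2795), all lower (log2 change -1.08 ± 0.11 (SE, adjusted p = 3.5e-06)).

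Nanog, a homeobox protein of naive cells, had 431 to 1181 in LIF-free arrays (median 895), against 1326 to 1895 in LIF arrays (median 1759). The groups did not overlap, and the fall was 2.0-fold (log2 change -1.0 ± 0.12 (SE, adjusted p = 1.48e-05)). Zfp42, the stem cell marker Rex1, had 925 to 1555 in LIF-free arrays (median 1299), against 2854 to 2983 in LIF arrays (median 2939), with a narrow range in LIF and no overlap (log2 change -1.25 ± 0.11 (SE, adjusted p = 7.23e-07)). Esrrb, an orphan nuclear receptor of the naive network, had 100 to 241 in LIF-free arrays (median 164), against 362 to 889.9 in LIF arrays (median 578), without overlap (log2 change -1.89 ± 0.12 (SE, adjusted p = 8.2e-08)). These core factors were thus still well above the filter in every LIF-free array after 7 days.

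Other members of the network fell as well. Jam2, a junctional adhesion molecule, had 86.6 to 166 in LIF-free arrays (median 129), against 443 to 1299.5 in LIF arrays (median 718). Its fall of 6.02-fold was without overlap (log2 change -2.59 ± 0.10 (SE, adjusted p = 9.53e-10)). Fgf4, a growth factor that Oct4 and Sox2 induce, had 59.1 to 177 in LIF-free arrays (median 161), against 353 to 785 in LIF arrays (median 707), without overlap (log2 change -2.28 ± 0.11 (SE, adjusted p = 1.16e-08)). Tdgf1, the Nodal co-receptor Cripto, fell 3.70-fold (log2 change -1.89 ± 0.10 (SE, adjusted p = 3.52e-08)). Lin28a, an RNA-binding protein that blocks let-7 maturation, was the 1 member that was higher, named here after its values were seen. It had 486 to 646 in LIF-free arrays (median 604), against 296 to 509 in LIF arrays (median 368), overlapping between the groups and higher in 5 of 6 pairs (log2 change 0.60 ± 0.13 (SE, adjusted p = 0.00183)).

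**Figure D2:**
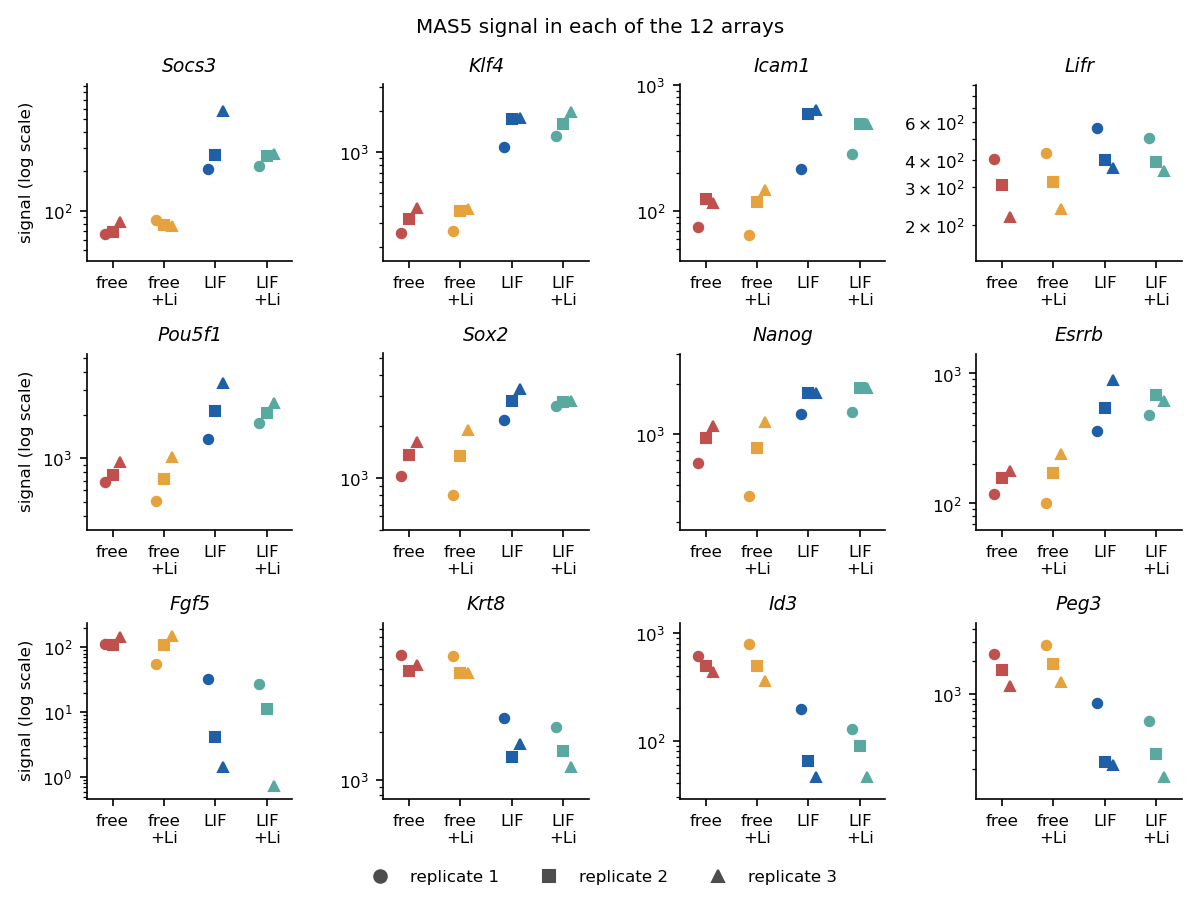
MAS5 signal on a log axis for 12 genes in each of the 12 arrays, 1 panel per gene, with the LIF-free conditions (free, free plus Li) left of the LIF conditions and the replicate number as the point shape. All but Lifr have no overlap between the groups. Pou5f1, Sox2, Nanog and Esrrb had their lowest signal of each of the 4 conditions in the replicate 1 array.

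Primed epiblast genes, which mark the state after the naive one, mostly rose. Of 21 measured, 11 were higher, 3 lower and 7 not called, beside 21.2% of all genes higher, with a median log2 change of 0.79. Fgf5, the classic growth factor of the primed epiblast, had 54.6 to 150.5 in LIF-free arrays (median 111), against 0.737 to 32.6 in LIF arrays (median 7.70). Every LIF-free value was higher. The log2 change was 4.11 ± 0.64 (SE, adjusted p = 0.000177), but 2.24 with 16 signal units added before the log, since the LIF signals were near background, and 2.69 without the replicate 3 arrays.

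Cdh2, N-cadherin, had 103 to 384 in LIF-free arrays (median 284), against 8.81 to 147 in LIF arrays (median 23.5). The lowest LIF-free value overlapped the highest LIF value, yet all 6 pairs were higher (log2 change 2.86 ± 0.27 (SE, adjusted p = 1.79e-06)). Sox4, an SRY-related factor, had 1118 to 1468 in LIF-free arrays (median 1329.5), against 234 to 745 in LIF arrays (median 366), without overlap (log2 change 1.73 ± 0.14 (SE, adjusted p = 6.71e-07)). Lef1, a partner of beta-catenin on DNA, rose (log2 change 2.04 ± 0.23 (SE, adjusted p = 7.39e-06), 1.30 with 16 units added). Dnmt3l, a cofactor of the de novo DNA methyltransferases, went the other way with 262 to 435 in LIF-free arrays (median 372), against 674 to 1084 in LIF arrays (median 813), all lower (log2 change -1.22 ± 0.10 (SE, adjusted p = 7.56e-07)).

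Among genes that write or erase DNA methylation, more fell than rose. Of 16 measured, 8 were lower (50%, against 18.7% of all genes), 3 higher (18.75%, against 21.2%) and 5 not called. Their median log2 change was -0.33, and without LIF replicate 3 the higher count was 5. Tet1, which like Tet2 oxidises methylated cytosine, had 138 to 248 in LIF-free arrays (median 208), against 429 to 754 in LIF arrays (median 561). No values overlapped (log2 change -1.54 ± 0.14 (SE, adjusted p = 1.2e-06)). Uhrf1, which guides maintenance methylation, fell 1.37-fold (log2 change -0.45 ± 0.09 (SE, adjusted p = 0.000826)), overlapping but lower in 6 of 6 pairs. The de novo methyltransferase Dnmt3b, named after its values were seen, was higher in 5 of 6 pairs (log2 change 0.79 ± 0.17 (SE, adjusted p = 0.00188)).

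Polycomb complex genes, whose products place and read repressive histone marks, changed by small amounts in both directions. Of 27 measured, 6 were higher (22.2%, against 21.2% of all genes) and 10 lower (37.0%, against 18.7%). Of these 16, 13 changed by less than 2-fold. After median centring 2 were higher and 7 lower. Eed, a core subunit of the complex that methylates histone H3, had 1077 to 1422 in LIF-free arrays (median 1290.2), against 1824 to 2122 in LIF arrays (median 2032). All LIF-free values were lower, by 1.59-fold (log2 change -0.67 ± 0.08 (SE, adjusted p = 2.58e-05)). Phc1 and Phc2, which are paralogues in the other Polycomb complex, moved in opposite directions. Phc1 fell 2.16-fold (log2 change -1.11 ± 0.12 (SE, adjusted p = 4.69e-06)). Phc2 rose 2.08-fold (log2 change 1.05 ± 0.15 (SE, adjusted p = 7.37e-05)), both without overlap. Pcgf3, a subunit of a variant complex, rose 1.45-fold (adjusted p = 0.000119), a call that median centring ended (adjusted p = 0.0527).

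Bright genes with changes under 2-fold were picked by a rule that asked for all 6 pairs in one direction, so evenness between pairs follows from the choice. Called genes with a mean signal of at least 200 and all 6 pairs in one direction numbered 689 higher and 766 lower below 2-fold, and the 8 with the smallest p on each side were read out. Igf2bp3, an RNA-binding protein of the embryo, had 689.6 to 928 in LIF-free arrays (median 775), against 363 to 470.4 in LIF arrays (median 413). No values overlapped, at a rise of 1.90-fold (log2 change 0.93 ± 0.08 (SE, adjusted p = 6.44e-07)). Sh3glb1, the membrane-bending protein endophilin B1, had 812 to 954 in LIF-free arrays (median 879), against 462 to 541 in LIF arrays (median 489), without overlap (log2 change 0.85 ± 0.07 (SE, adjusted p = 7.88e-07)). Mtpn, myotrophin, had 1588 to 1763 in LIF-free arrays (median 1649.7), against 744 to 1000.3 in LIF arrays (median 889.5), without overlap (log2 change 0.91 ± 0.08 (SE, adjusted p = 1.2e-06)).

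The other 5 rises picked this way were also without overlap. They were Sri, the calcium-binding protein sorcin (1.79-fold), Carhsp1, an RNA-binding phosphoprotein (1.85-fold), Ptpn11 as above, N4bp2 (1.97-fold) and the ubiquitin-conjugating enzyme Ube2h (1.92-fold). Their adjusted p ran from 1.36e-06 for Sri to 1.78e-06 for Ube2h.

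Of the 8 falls picked the same way, Slc25a36, a mitochondrial carrier of pyrimidine nucleotides, had 693 to 823 in LIF-free arrays (median 731), against 1302 to 1446 in LIF arrays (median 1423). The gap between the groups was wider than the range within either (log2 change -0.90 ± 0.07 (SE, adjusted p = 4.12e-07)). Gstp1, a glutathione transferase, had 312 to 523 in LIF-free arrays (median 464), against 684 to 1045 in LIF arrays (median 937), without overlap (log2 change -1.0 ± 0.08 (SE, adjusted p = 4.41e-07)). Dkc1, the pseudouridine synthase dyskerin of snoRNA and telomerase particles, had 664 to 1089.8 in LIF-free arrays (median 989), against 1384 to 2220.2 in LIF arrays (median 1878), without overlap (log2 change -0.98 ± 0.08 (SE, adjusted p = 6.43e-07)).

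Rdm1 fell 1.98-fold, the snoRNA host gene Snhg6 1.90-fold, the aspartate aminotransferase Got1 1.91-fold and the ubiquitin-conjugating enzyme Ube2t 1.89-fold, each without overlap. Atp1b1, a subunit of the sodium pump, fell 1.95-fold with some overlap between the groups. The adjusted p of these falls ran from 4.12e-07 for Slc25a36 to 7.56e-07 for Ube2t.

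**Figure D3:**
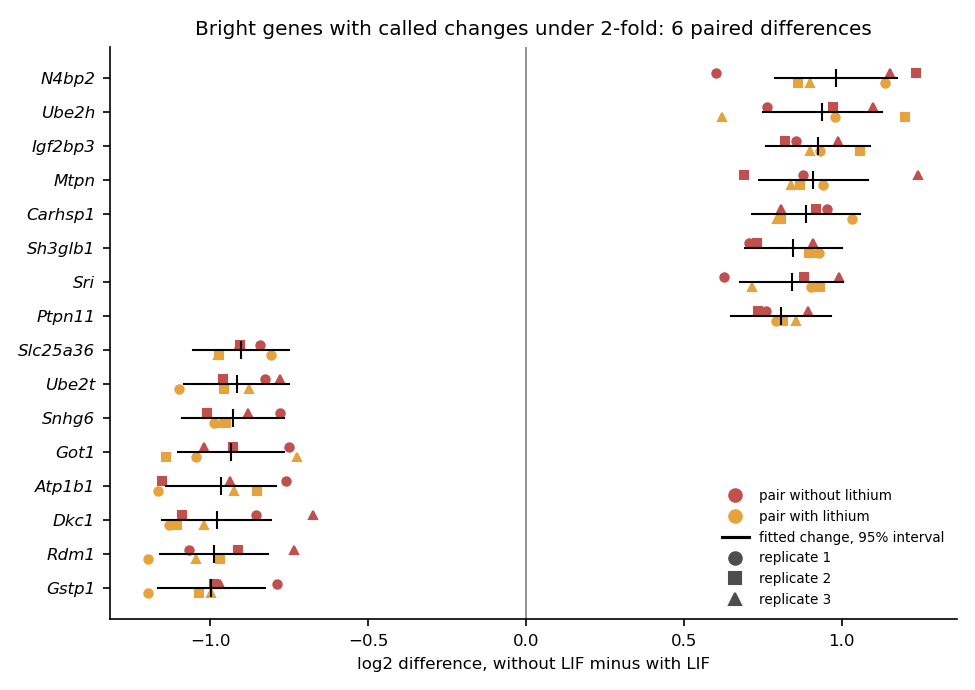
Log2 difference, LIF-free minus LIF, of the 16 bright genes with the smallest p among called changes under 2-fold (8 higher, 8 lower), with the 6 pairs of equal lithium state and replicate number as points and the fitted change with its 95% interval as a line. Genes were picked with all 6 pairs on one side of 0, and the fitted change is 0.93 for Igf2bp3 and -0.90 for Slc25a36.

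Several lists of protein synthesis and mitochondrial genes held more falls than rises, all under 2-fold, with many members not called. Ribosome biogenesis and nucleolar genes, which make and assemble ribosomal RNA, had 21 of 37 members lower (56.8%, against 18.7% of all genes) and 16 not called. The median log2 change was -0.28, and each of the 21 changed by less than 2-fold. With each array centred on its median, 8 were lower at a median log2 change of -0.35, beside 1760 of all 12737 genes lower. Without the replicate number in the model 15 were lower. Nolc1, a nucleolar phosphoprotein, fell 1.45-fold and had 357 to 515 in LIF-free arrays (median 451), against 569 to 708 in LIF arrays (median 675), without overlap (log2 change -0.53 ± 0.08 (SE, adjusted p = 9.61e-05)). Nop10, a small protein of the same particles as dyskerin, fell 1.42-fold (log2 change -0.50 ± 0.09 (SE, adjusted p = 0.000468)), without overlap. Ubtf, which drives RNA polymerase I on ribosomal DNA, fell 1.52-fold (log2 change -0.61 ± 0.11 (SE, adjusted p = 0.000766)). The 18S signal given above is used here as an array quality measure and was not read as a level of ribosomal RNA.

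Cytosolic aminoacyl-tRNA synthetases, which load tRNAs with amino acids, had 14 of 19 members lower (73.7%, against 18.7% of all genes) and 5 not called. The median log2 change was -0.45, and 11 were lower after median centring. Nars, the asparagine enzyme, had 1138 to 1285 in LIF-free arrays (median 1209.8), against 1622 to 2044 in LIF arrays (median 1889.7). Every LIF-free value was lower (log2 change -0.63 ± 0.07 (SE, adjusted p = 1.26e-05)). Tars, the threonine enzyme, fell 1.75-fold (log2 change -0.81 ± 0.12 (SE, adjusted p = 7.84e-05)), and Eprs and Gars fell 1.56-fold and 1.36-fold, each without overlap.

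Mitochondrial ribosomal proteins had 33 of 76 members lower (43.4%, against 18.7% of all genes) and 3 higher (3.95%, against 21.2%), with a median log2 change of -0.19. Of the 36 called, 11 were called in neither lithium state alone. After median centring 9 of 76 were lower, a share near that of all genes (1760 of 12737 lower), at a median log2 change of -0.27. The lower count was 18 without the replicate number and 45 without LIF replicate 3, the array of lowest weight. Mrps24 had 232 to 362 in LIF-free arrays (median 299.7), against 442 to 644 in LIF arrays (median 497), without overlap (log2 change -0.80 ± 0.10 (SE, adjusted p = 1.84e-05)), and Mrps31 fell 1.66-fold (log2 change -0.73 ± 0.10 (SE, adjusted p = 5.59e-05)). Nuclear-encoded respiratory chain genes had 30 of 70 lower (42.9%) and 1 higher (1.43%), with a median log2 change of -0.20. After median centring 11 of 70 were lower, again near the share of all genes, at a median of -0.28. Cox8a, a subunit of cytochrome c oxidase, had 796 to 911 in LIF-free arrays (median 859.7), against 1007 to 1803 in LIF arrays (median 1593). The groups were apart (log2 change -0.77 ± 0.10 (SE, adjusted p = 3.03e-05)). Ndufa6 of complex I and Uqcrq of complex III fell 1.54-fold and 1.54-fold, also apart.

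Other housekeeping lists moved less. Of 40 cytosolic ribosomal proteins (17.5% called, against 39.9% of all genes) 6 were lower and 1 higher. Their median log2 change of 0.06 turned to -0.01 after median centring. Rpl12 fell 3.05-fold (log2 change -1.61 ± 0.13 (SE, adjusted p = 4.46e-07)) and Rpl27a rose 3.51-fold (log2 change 1.81 ± 0.22 (SE, adjusted p = 2.11e-05)). Ribosomal protein genes have near-identical copies in the genome, so a single probe set of this family is uncertain. Of 34 proteasome subunits (8.82% called), Psmb2 was higher and Psmc4 and Psmd7 were lower. Median centring ended these 3 calls (adjusted p = 0.448, 0.107 and 0.268), while 4 were lower without LIF replicate 3. Of 32 splicing factors, 9 were lower (28.1%, against 18.7% of all genes) and 23 not called. After centring 4 were lower, beside 1760 of all 12737 genes. Snrpf, a core protein of the spliceosomal particles, fell 1.57-fold (log2 change -0.65 ± 0.08 (SE, adjusted p = 2.6e-05)) and U2af1, which reads the 3 prime splice site, 1.33-fold (log2 change -0.41 ± 0.07 (SE, adjusted p = 0.000594)).

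Chaperones and lysosomal genes were called no more often than all genes (39.9%), and each call was under 2-fold. Of 24 chaperones (37.5% called), 4 were higher and 5 lower, and after median centring 2 were lower and 22 not called. Hspa9, the mitochondrial Hsp70, had 1512 to 2056 in LIF-free arrays (median 1729), against 2004 to 2961 in LIF arrays (median 2780.0). The lowest LIF value overlapped the LIF-free range, and all 6 pairs were lower (log2 change -0.61 ± 0.09 (SE, adjusted p = 7.13e-05)). Dnaja1 and St13, co-chaperones of cytosolic Hsp70, rose 1.36-fold and 1.40-fold, calls that median centring ended (adjusted p = 0.134 and 0.0851). Of 28 lysosomal genes (28.6% called), 4 were higher and 4 lower. After median centring 1 was lower and 27 not called, and without the replicate number 2 were higher and 2 lower. Glb1, beta-galactosidase, fell 1.83-fold without overlap (log2 change -0.87 ± 0.10 (SE, adjusted p = 8.92e-06)), while the rise of Lamp2, a lysosomal membrane protein, was not called after centring (adjusted p = 0.116). Of 19 cholesterol synthesis genes (21.1% called), 3 were higher, 1 lower and 15 not called, the clearest being Sc5d (1.58-fold higher, adjusted p = 0.000537).

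Glycolytic and hypoxia-responsive genes fell. Of 27 measured, 17 were lower (63.0%, against 18.7% of all genes) and 3 higher (11.1%, against 21.2%), with a median log2 change of -0.37. The lower count was 13 after median centring and 11 without the replicate number. Pfkp, the platelet form of phosphofructokinase, stood apart from the others with 195 to 319 in LIF-free arrays (median 239.5), against 842 to 1192 in LIF arrays (median 1092). No values overlapped, and the fall was 4.24-fold (log2 change -2.08 ± 0.13 (SE, adjusted p = 7.31e-08)). Hk2, a hexokinase, had 652 to 974 in LIF-free arrays (median 803), against 1292 to 1556 in LIF arrays (median 1517), without overlap (log2 change -0.88 ± 0.09 (SE, adjusted p = 3.68e-06)). Egln3, an oxygen-sensing hydroxylase, fell 1.69-fold (log2 change -0.75 ± 0.09 (SE, adjusted p = 1.97e-05)), and Ldhb, a lactate dehydrogenase subunit, 1.89-fold (log2 change -0.92 ± 0.12 (SE, adjusted p = 2.76e-05)).

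Genes of the ATF4 response, which supplies amino acids under stress, and of serine synthesis fell further. Of 20 measured, 15 were lower (75%, against 18.7% of all genes) and 2 higher (10%, against 21.2%), with a median log2 change of -0.77. In 13 all LIF-free values lay under all LIF values, as in 7.69% of all genes. Nupr1, a stress-induced nuclear protein, had 37.2 to 56.6 in LIF-free arrays (median 45.2), against 212 to 466 in LIF arrays (median 310.3). It fell 6.80-fold (log2 change -2.77 ± 0.15 (SE, adjusted p = 2.52e-08)). Psat1, an enzyme of serine synthesis, had 398 to 615 in LIF-free arrays (median 417), against 1034 to 1508 in LIF arrays (median 1314), without overlap (log2 change -1.49 ± 0.10 (SE, adjusted p = 8.44e-08)). Mthfd2, a mitochondrial enzyme of folate metabolism, had 120.4 to 165 in LIF-free arrays (median 129), against 277 to 385 in LIF arrays (median 343), without overlap (log2 change -1.32 ± 0.09 (SE, adjusted p = 1.1e-07)). Cth, which makes cysteine from cystathionine, fell 2.31-fold (log2 change -1.21 ± 0.10 (SE, adjusted p = 4.23e-07)).

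The largest changes in log2 came from genes close to background in one group, so their size depends on the floor. Of the 10 largest rises, Aplnr, the apelin receptor of early mesoderm, had 156 to 424 in LIF-free arrays (median 263), against 0.137 to 70.6 in LIF arrays (median 8.45). All LIF-free values were higher (log2 change 5.24 ± 0.60 (SE, adjusted p = 1.02e-05), 3.20 with 16 units added before the log). Cyp26a1, which breaks down retinoic acid, had 101 to 256 in LIF-free arrays (median 189.9), against 5.80 to 37.1 in LIF arrays (median 11.5), without overlap (log2 change 3.74 ± 0.25 (SE, adjusted p = 9.42e-08), 2.65 with 16 units added). Rspo3, a secreted amplifier of Wnt signals, had 55.0 to 148 in LIF-free arrays (median 98.2), against 1.19 to 42.9 in LIF arrays (median 4.26), without overlap (log2 change 3.92 ± 0.40 (SE, adjusted p = 3.45e-06), 2.10 with 16 units added). Bmp5, a BMP ligand, and Evx1, a homeobox protein found in the late streak, rose without overlap (log2 changes 3.96 and 3.65, 2.07 and 1.37 with 16 units added). Rgs5, a regulator of G-protein signals, overlapped a little (log2 change 3.78, 1.74 with 16 units added). Cdh11, Lhx1, Fgf5 and Usp18 complete the 10.

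Of the 10 largest falls, Inhbb, a subunit of activin B, had 1.69 to 8.49 in LIF-free arrays (median 3.18), against 82.0 to 229 in LIF arrays (median 162). Every LIF-free value was near or under the filter signal of 7.52 (log2 change -5.43 ± 0.36 (SE, adjusted p = 9.42e-08), -3.02 with 16 units added). A2m, the protease inhibitor alpha-2-macroglobulin, had 7.23 to 23.5 in LIF-free arrays (median 13.7), against 101 to 206 in LIF arrays (median 149.9), without overlap (log2 change -3.42 ± 0.21 (SE, adjusted p = 7.39e-08), -2.44 with 16 units added). Etv4, an ETS factor that FGF signals induce, had 2.11 to 18.8 in LIF-free arrays (median 12.8), against 89.3 to 161 in LIF arrays (median 117), without overlap (log2 change -3.81 ± 0.39 (SE, adjusted p = 4.18e-06), -2.36 with 16 units added). Myo1f, an unconventional myosin, had 0.735 to 4.57 in LIF-free arrays (median 1.20), against 38.5 to 82.2 in LIF arrays (median 70.8) and changed by -5.13 in log2 (-2.10 with 16 units added).

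The other falls among the 10 were also without overlap and came to LIF-free medians under the filter or close to it. Arc, an activity-regulated gene of neurons, changed by -4.32 in log2 (-1.64 with 16 units added), Ttc29 by -4.27 (-1.55), Ucp1, the uncoupling protein of brown fat, by -3.82 (-1.40) and Dnajb13 by -3.32 (-1.26). Nkx6-3, a homeobox factor, changed by -3.31 (-1.78 with 16 units added) and Vax2os by -3.24 (-1.21).

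Primitive streak and early mesoderm genes mark the first step of gastrulation, and most of those measured rose. Of 24 listed, 19 were measured, and Gsc, Wnt3, Foxc2 and Meox1 were under the filter. Members near background with LIF pass it only through their LIF-free signals, so the counts lean toward rises. Of the 19, 13 were higher (68.4%, against 21.2% of all genes) and 6 not called, with a median log2 change of 1.46. Lhx1, a homeobox factor of the node and its derivatives, had 23.4 to 84.1 in LIF-free arrays (median 51.4), against 0.375 to 21.3 in LIF arrays (median 1.08). Every LIF-free value was higher (log2 change 4.46 ± 0.61 (SE, adjusted p = 5.52e-05), 1.71 with 16 units added). Foxa2, the forkhead protein of endoderm and node, had 44.1 to 64.8 in LIF-free arrays (median 56.0), against 12.6 to 30.5 in LIF arrays (median 18.7), without overlap (log2 change 1.46 ± 0.20 (SE, adjusted p = 4.97e-05)). Foxc1, a forkhead factor of mesoderm, rose with some overlap (log2 change 1.85 ± 0.27 (SE, adjusted p = 7.97e-05), 0.98 with 16 units added). Kdr, a VEGF receptor of mesodermal progenitors, had 9.71 to 62.1 in LIF-free arrays (median 47.0), against 0.68 to 16 in LIF arrays (median 11.5). Its LIF-free replicate 3 without lithium was at 9.71, within the LIF range, and leaving out replicate 1 or 2 ended the call (adjusted p = 0.00673 with all arrays, 0.0634 and 0.0831 without those). Brachyury is not analysed here.

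Cardiac and muscle genes had 10 of 20 measured members higher (50%, against 21.2% of all genes) and 2 lower (10%, against 18.7%). The median log2 change was 0.81. The lower count was 1 without the replicate number in the model or without LIF replicate 3. Tnnc1, the troponin C of heart and slow muscle, had 186 to 235 in LIF-free arrays (median 203), against 39.1 to 75.8 in LIF arrays (median 51.1). The groups were far apart (log2 change 1.97 ± 0.14 (SE, adjusted p = 1.46e-07)). Tbx20, a heart T-box factor, had 105 to 162 in LIF-free arrays (median 136), against 42.3 to 81.2 in LIF arrays (median 49.6), without overlap (log2 change 1.36 ± 0.14 (SE, adjusted p = 3.92e-06)). Acta1, skeletal actin, rose 2.30-fold (log2 change 1.20 ± 0.16 (SE, adjusted p = 5.35e-05)), and Hand2, a factor of heart and limb, rose from low signals (log2 change 3.46 ± 0.38 (SE, adjusted p = 7.11e-06), 1.70 with 16 units added). Of 5 markers of differentiated cardiomyocytes, Nppa was under the filter, Myh7 was higher and Myl7 lower. Their summed signal was 46.5 to 106 in LIF-free arrays and 51.0 to 70.4 in LIF arrays, which overlap.

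Endoderm genes moved in both directions, 9 of 22 higher (40.9%, against 21.2% of all genes) and 5 lower (22.7%, against 18.7%). Without the replicate number in the model 3 were lower. Cited1, a transcriptional co-activator, had 226 to 348 in LIF-free arrays (median 277), against 39.5 to 90.8 in LIF arrays (median 55.0). All LIF-free values were higher (log2 change 2.22 ± 0.13 (SE, adjusted p = 3.88e-08)). Sparc, a matrix protein of parietal endoderm among other tissues, rose 1.68-fold (log2 change 0.75 ± 0.11 (SE, adjusted p = 6.62e-05)). Amn, amnionless, of visceral endoderm and kidney, fell 2.51-fold (log2 change -1.33 ± 0.15 (SE, adjusted p = 8.7e-06)). Gata6, a factor of primitive endoderm, had 60.8 to 165 in LIF-free arrays (median 110.5), against 48.3 to 120.4 in LIF arrays (median 81.1), overlapping and not called (log2 change 0.45 ± 0.23 (SE, adjusted p = 0.148)). It was called without replicate 3 (log2 change 0.86, adjusted p = 0.00261), and without LIF plus lithium replicate 3 (0.68) or LIF-free plus lithium replicate 3 (0.62) alone.

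Of 13 neural genes, 3 were higher (23.1%), 2 lower (15.4%) and 8 not called, shares near those of all genes (21.2% and 18.7%). Sox11, an SRY-related factor of neural and other progenitors, had 312 to 536 in LIF-free arrays (median 423), against 79.5 to 233 in LIF arrays (median 110.3), without overlap (log2 change 1.70 ± 0.16 (SE, adjusted p = 1.86e-06)). Gap43, a growth cone protein, rose 4.08-fold (log2 change 2.03 ± 0.27 (SE, adjusted p = 3.88e-05)). Stmn2, a neuronal microtubule regulator, had 163 to 255 in LIF-free arrays (median 193), against 333 to 432 in LIF arrays (median 350.4), all lower (log2 change -0.90 ± 0.10 (SE, adjusted p = 7.46e-06)), and Neurod1, a neurogenic factor, fell from low signals (log2 change -2.20 ± 0.32 (SE, adjusted p = 8.6e-05), -1.04 with 16 units added). Of 6 neuron and glia markers, Dcx was under the filter, and the summed signal was 335 to 478 in LIF-free arrays and 415 to 553 in LIF arrays.

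Trophoblast and epithelial genes rose with few exceptions. Of 18 trophoblast genes, 16 were higher (88.9%, against 21.2% of all genes) and 2 not called (median log2 change 1.21). Of 22 genes of epithelial junctions and keratins, 18 were higher (81.8%) and 1 lower (4.55%, against 18.7%), with a median of 1.19. In 18 of the 22 all LIF-free values lay above all LIF values, as in 10.5% of all genes. The lists share the keratins Krt7, Krt8, Krt18 and Krt19. Krt8, a keratin of simple epithelia, had 4734 to 6180.5 in LIF-free arrays (median 5080.0), against 1204 to 2469.5 in LIF arrays (median 1602). The lowest LIF-free value was far above the highest LIF value (log2 change 1.65 ± 0.10 (SE, adjusted p = 3.88e-08)). Krt19 had 972 to 1046 in LIF-free arrays (median 1022), against 207 to 412 in LIF arrays (median 291), with a narrow range without LIF and no overlap (log2 change 1.81 ± 0.14 (SE, adjusted p = 2.79e-07)).

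Krt18, the filament partner of Krt8, rose 2.88-fold (log2 change 1.53 ± 0.10 (SE, adjusted p = 9.42e-08)). Dsp, the desmosomal plaque protein desmoplakin, had 1115 to 1961 in LIF-free arrays (median 1772), against 309.7 to 914 in LIF arrays (median 582), without overlap (log2 change 1.54 ± 0.10 (SE, adjusted p = 9.01e-08)). Plac1, a gene of the placenta, had 199.7 to 387 in LIF-free arrays (median 296), against 22.7 to 95.4 in LIF arrays (median 35.7), without overlap (log2 change 2.80 ± 0.18 (SE, adjusted p = 9.42e-08)).

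Mesenchymal transition genes mostly rose as well, 9 of 13 higher (69.2%, against 21.2% of all genes) and 4 not called, with a median log2 change of 1.49. Vim, vimentin, the intermediate filament of mesenchymal cells, had 1161 to 2256 in LIF-free arrays (median 1692), against 379 to 954 in LIF arrays (median 529). Every LIF-free value was higher (log2 change 1.56 ± 0.09 (SE, adjusted p = 3.88e-08)). Cdh11, a cadherin of mesenchyme, had 25.9 to 348 in LIF-free arrays (median 169.8), against 1.02 to 42.6 in LIF arrays (median 4.03), with overlap but higher in 6 of 6 pairs (log2 change 4.59 ± 0.42 (SE, adjusted p = 1.63e-06), 2.55 with 16 units added). Tgfb2, a TGF-beta ligand, rose 4.73-fold (log2 change 2.24 ± 0.24 (SE, adjusted p = 5.28e-06)). Of 30 matrix proteins and integrins, 14 were higher (46.7%) and 4 lower (13.3%, against 18.7% of all genes), with a median of 0.50. Col5a1, a fibrillar collagen chain, had 160.1 to 297 in LIF-free arrays (median 223), against 37.4 to 122 in LIF arrays (median 51.3), without overlap (log2 change 1.89 ± 0.19 (SE, adjusted p = 3.8e-06)). The integrin subunits Itgb1 and Itgb5 rose 2.01-fold and 1.99-fold.

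Markers of fibroblasts and feeder cells, some of them on these lists, mostly moved with them. Of 14 markers, Dcn, Lum, S100a4 and Fap were under the filter, 7 of the other 10 were higher and 1 lower, and their summed signal was 1780 to 3481 in LIF-free arrays and 744 to 1679 in LIF arrays. Cxcl12, a stromal chemokine, had 70.5 to 119.6 in LIF-free arrays (median 87.0), against 4.62 to 37.4 in LIF arrays (median 11.5), without overlap (log2 change 2.83 ± 0.31 (SE, adjusted p = 6.14e-06), 1.78 with 16 units added). The part of these markers in the mesenchymal and matrix results was not tested. Of 14 endothelial and blood markers 7 were under the filter, among them Tie1, Tal1 and Ptprc. The summed signal of the list was 147 to 250.3 in LIF-free arrays and 183 to 334 in LIF arrays. Pecam1, an adhesion molecule of endothelium that embryonic stem cells also carry, fell 4.13-fold (log2 change -2.05 ± 0.17 (SE, adjusted p = 7.23e-07)). It held most of the list's signal with LIF, with a median of 37.6 in LIF-free arrays and 142 in LIF arrays, of median sums of 213 and 242. Of the 7 tested, Kdr was called higher, Pecam1 lower and 5 were not called (28.6% called, against 39.9% of all genes). Kdr, Hbb-bh1, Cdh5 and Gata1 had higher medians in LIF-free arrays (47.0, 24.3, 10.4 and 17.2) than in LIF arrays (11.5, 7.09, 6.13 and 13.1). Tek and Runx1 had lower medians in LIF-free arrays (16.5 and 15.1) than in LIF arrays (20.3 and 15.8).

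Wnt target genes rose over both lithium states. Of 17 measured targets of beta-catenin, 13 were higher (76.5%, against 21.2% of all genes) and 4 not called, with a median log2 change of 1.66. Axin2, a feedback inhibitor and the most used readout of the pathway, had 50.7 to 108 in LIF-free arrays (median 62.9), against 14.7 to 35.4 in LIF arrays (median 20.1). The groups did not overlap (log2 change 1.57 ± 0.20 (SE, adjusted p = 3.06e-05)). Dkk1, a secreted antagonist, had 173 to 266 in LIF-free arrays (median 205), against 19 to 93.9 in LIF arrays (median 35.3), without overlap (log2 change 2.5 ± 0.22 (SE, adjusted p = 1.03e-06)). Tnfrsf19, a TNF receptor family member, rose 6.47-fold (log2 change 2.69 ± 0.28 (SE, adjusted p = 4.69e-06)), and Msx2, a homeobox factor that BMP also induces, 5.41-fold (log2 change 2.44 ± 0.22 (SE, adjusted p = 1.35e-06)).

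Of 38 listed Wnt ligands and receptors, 28 passed the filter. Of these, 14 were higher (50%, against 21.2% of all genes) and 3 lower (10.7%, against 18.7%), with a median log2 change of 0.76. Ror1, a receptor of Wnt5a, had 57.2 to 86.6 in LIF-free arrays (median 68.7), against 9.38 to 39.8 in LIF arrays (median 15.0), without overlap (log2 change 2.10 ± 0.25 (SE, adjusted p = 1.32e-05), 1.37 with 16 units added). Fzd2, a Frizzled receptor, rose 3.22-fold (log2 change 1.69 ± 0.20 (SE, adjusted p = 1.51e-05)), and Dact1, a Dishevelled antagonist, 2.93-fold (log2 change 1.55 ± 0.14 (SE, adjusted p = 1.53e-06)).

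The FGF and ERK pathway moved both ways, 9 of 24 higher (37.5%) and 6 lower (25%), beside 21.2% and 18.7% of all genes. After median centring 5 were higher and 7 lower, and without the replicate number 5 and 5. Ligands went in opposite directions: Fgf4 fell and Fgf5 rose, as given above. Spry4, a feedback inhibitor of the pathway, had 35.1 to 60.3 in LIF-free arrays (median 52.6), against 118 to 214 in LIF arrays (median 149). All LIF-free values were lower (log2 change -1.68 ± 0.17 (SE, adjusted p = 3.56e-06)), as they were for Etv4. Fgfr2, a receptor, had 176 to 231 in LIF-free arrays (median 197), against 59.5 to 126 in LIF arrays (median 66.3), all higher (log2 change 1.36 ± 0.14 (SE, adjusted p = 4.95e-06)).

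In the BMP, activin and Nodal pathway, 21 of 31 members were higher (67.7%, against 21.2% of all genes) and 6 lower (19.4%, against 18.7%). The median log2 change was 0.59, and the counts were 15 and 4 after median centring. The Id genes are direct targets of BMP and inhibit differentiation factors. Id3 had 358 to 789 in LIF-free arrays (median 495), against 45.8 to 196 in LIF arrays (median 77.3). The groups were apart (log2 change 2.65 ± 0.16 (SE, adjusted p = 6.05e-08)). Id2 had 703 to 1052 in LIF-free arrays (median 841), against 181 to 447 in LIF arrays (median 289), also apart (log2 change 1.61 ± 0.12 (SE, adjusted p = 3.28e-07)). The falls included the activin subunit Inhbb and the Nodal co-receptor Tdgf1 given above.

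Among genes of retinoic acid metabolism, 6 of 15 were higher (40%) and 3 lower (20%), beside 21.2% and 18.7% of all genes. Without LIF replicate 3 the counts were 5 and 1. Rdh10, which makes retinal, had 159 to 218 in LIF-free arrays (median 203), against 60.1 to 110.2 in LIF arrays (median 76.7), without overlap (log2 change 1.37 ± 0.14 (SE, adjusted p = 3e-06)). Crabp2, a retinoic acid carrier, rose 3.60-fold (log2 change 1.85 ± 0.16 (SE, adjusted p = 8.94e-07)), beside Cyp26a1 above. Stra8, a retinoic acid target of germ cells, had 13.4 to 22.6 in LIF-free arrays (median 18.6), against 38.6 to 151 in LIF arrays (median 77.0), all lower (log2 change -2.13 ± 0.20 (SE, adjusted p = 1.54e-06)). Hox genes and their cofactors, which pattern the body axis, numbered 32, of which 29 had a probe set and 17 passed the filter. A member silent with LIF passes only where its LIF-free signals lift the mean, so the counts lean toward rises. Of the 17, 11 were higher (64.7%, against 21.2% of all genes) and 1 lower (5.88%, against 18.7%), with a median log2 change of 1.22. In 3 of them all LIF-free values lay above all LIF values, against 10.5% of all genes. Meis2, a cofactor, had 118 to 212 in LIF-free arrays (median 166), against 14.8 to 106 in LIF arrays (median 20.5). The groups did not overlap (log2 change 2.51 ± 0.25 (SE, adjusted p = 2.72e-06)). Pbx3, another cofactor, rose 2.59-fold (log2 change 1.37 ± 0.13 (SE, adjusted p = 1.69e-06)), and Hoxd8 rose with overlap (log2 change 1.36 ± 0.25 (SE, adjusted p = 0.000624), 0.86 with 16 units added).

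Of 37 replication and mitosis genes, 14 were lower (37.8%, against 18.7% of all genes) and 2 higher (5.41%, against 21.2%). Each changed by less than 2-fold, and the median log2 change was -0.19. After median centring 6 were lower and 31 not called, beside 1760 of all 12737 genes lower. Mcm3, a subunit of the replicative helicase, had 880.3 to 1327 in LIF-free arrays (median 1051), against 1288 to 1935 in LIF arrays (median 1697). The ranges met at their edges, and all 6 pairs were lower (log2 change -0.65 ± 0.08 (SE, adjusted p = 2.35e-05)). Pola1, the catalytic subunit of DNA polymerase alpha, fell 1.74-fold without overlap (log2 change -0.80 ± 0.11 (SE, adjusted p = 5.53e-05)). G1 regulators moved both ways, 7 of 25 higher and 7 lower (28% each, against 21.2% and 18.7% of all genes). Cdkn1c, the CDK inhibitor p57 and an imprinted gene, had 590.4 to 872 in LIF-free arrays (median 780.4), against 93.5 to 249 in LIF arrays (median 137). It rose 4.93-fold without overlap (log2 change 2.30 ± 0.15 (SE, adjusted p = 9.01e-08)). Ccne1, cyclin E1, fell 1.89-fold (log2 change -0.92 ± 0.09 (SE, adjusted p = 3.59e-06)), and Ccnd2, cyclin D2, rose 2.90-fold (log2 change 1.53 ± 0.18 (SE, adjusted p = 1.32e-05)).

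Myc, a growth regulator that STAT3 is known to induce in these cells, had 108 to 184 in LIF-free arrays (median 141), against 73.3 to 147 in LIF arrays (median 107). The groups overlapped, and the signal was higher in 5 of 6 pairs (log2 change 0.42 ± 0.14 (SE, adjusted p = 0.0306)). This call was among the least firm of those named. It ended without the replicate number (adjusted p = 0.1), after median centring (0.2), and on leaving out any of 7 single arrays. Its adjusted p was at most 0.101 without a single array and 0.322 without replicate 2. Mxd4, an antagonist of Myc, rose (log2 change 2.08 ± 0.28 (SE, adjusted p = 4.19e-05), 1.25 with 16 units added), and Mxi1, another antagonist, fell 1.63-fold without overlap (log2 change -0.70 ± 0.09 (SE, adjusted p = 2.35e-05)). Of 18 genes of p53 and its targets, 6 were higher (33.3%) and 5 lower (27.8%), beside 21.2% and 18.7% of all genes. The counts were 3 and 3 after median centring and 4 and 2 without the replicate number. Perp, a target in cell junctions, rose 1.97-fold (log2 change 0.98 ± 0.10 (SE, adjusted p = 2.5e-06)) and Mdm4, an inhibitor of p53, fell 1.70-fold (log2 change -0.77 ± 0.11 (SE, adjusted p = 6e-05)).

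Genes stimulated by interferon or presenting antigen on class I rose. Of 26 measured, 21 were higher (80.8%, against 21.2% of all genes), 1 lower (3.85%, against 18.7%) and 4 not called. The median log2 change was 1.19. In 17 all LIF-free values lay above all LIF values, as in 10.5% of all genes. Usp18, which strips ISG15 from proteins, had 160.4 to 290.1 in LIF-free arrays (median 213), against 5.31 to 75.7 in LIF arrays (median 14.1). Every LIF-free value was higher (log2 change 3.72 ± 0.46 (SE, adjusted p = 2.1e-05), 2.67 with 16 units added). B2m, the invariant chain of class I molecules, had 1158 to 1853 in LIF-free arrays (median 1463), against 478 to 746 in LIF arrays (median 536), without overlap (log2 change 1.38 ± 0.12 (SE, adjusted p = 8.36e-07)). Tapbp, which loads peptides on class I, had 502 to 842 in LIF-free arrays (median 761), against 162 to 289 in LIF arrays (median 221), without overlap (log2 change 1.72 ± 0.16 (SE, adjusted p = 1.46e-06)). Ifi35 rose 3.10-fold and H2-K1, a class I heavy chain, 1.99-fold. Class I heavy chains are near-identical in sequence, so H2-K1 is uncertain.

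Imprinted genes, expressed from one parental allele, rose in 15 of 22 measured members (68.2%, against 21.2% of all genes). They fell in 2 (9.09%, against 18.7%), and the median log2 change was 0.99. Both falls were lost without the replicate number in the model, and 1 without LIF replicate 3. Peg3, a zinc finger protein, had 1183 to 2864 in LIF-free arrays (median 1782), against 171 to 819 in LIF arrays (median 256). The groups did not overlap (log2 change 2.47 ± 0.15 (SE, adjusted p = 5.14e-08)). Igf2, an embryonic growth factor, had 2410.2 to 4404 in LIF-free arrays (median 3493), against 500.4 to 1606 in LIF arrays (median 719), without overlap (log2 change 2.09 ± 0.17 (SE, adjusted p = 4.68e-07)). Peg10, derived from a retrotransposon, rose 4.83-fold (log2 change 2.27 ± 0.17 (SE, adjusted p = 2.67e-07)). Germ cell and 2-cell-like genes mostly fell, 10 of 16 lower (62.5%, against 18.7% of all genes) and 1 higher (6.25%, against 21.2%). Their median log2 change was -1.18. Mael, of the piRNA pathway, had 14.7 to 32.9 in LIF-free arrays (median 31.1), against 68.5 to 197 in LIF arrays (median 151). All LIF-free values were lower (log2 change -2.35 ± 0.13 (SE, adjusted p = 3.45e-08)). Ddx4, the germ cell helicase Vasa, fell 2.68-fold (log2 change -1.42 ± 0.14 (SE, adjusted p = 2.6e-06)), and Dazl fell to near background (log2 change -2.78 ± 0.33 (SE, adjusted p = 1.37e-05), -1.50 with 16 units added). Kitl, the ligand of the receptor Kit, was the 1 member that rose, and had 203 to 349 in LIF-free arrays (median 314), against 19.6 to 121 in LIF arrays (median 35.3) (log2 change 2.71 ± 0.23 (SE, adjusted p = 8.92e-07)).

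**Figure D4:**
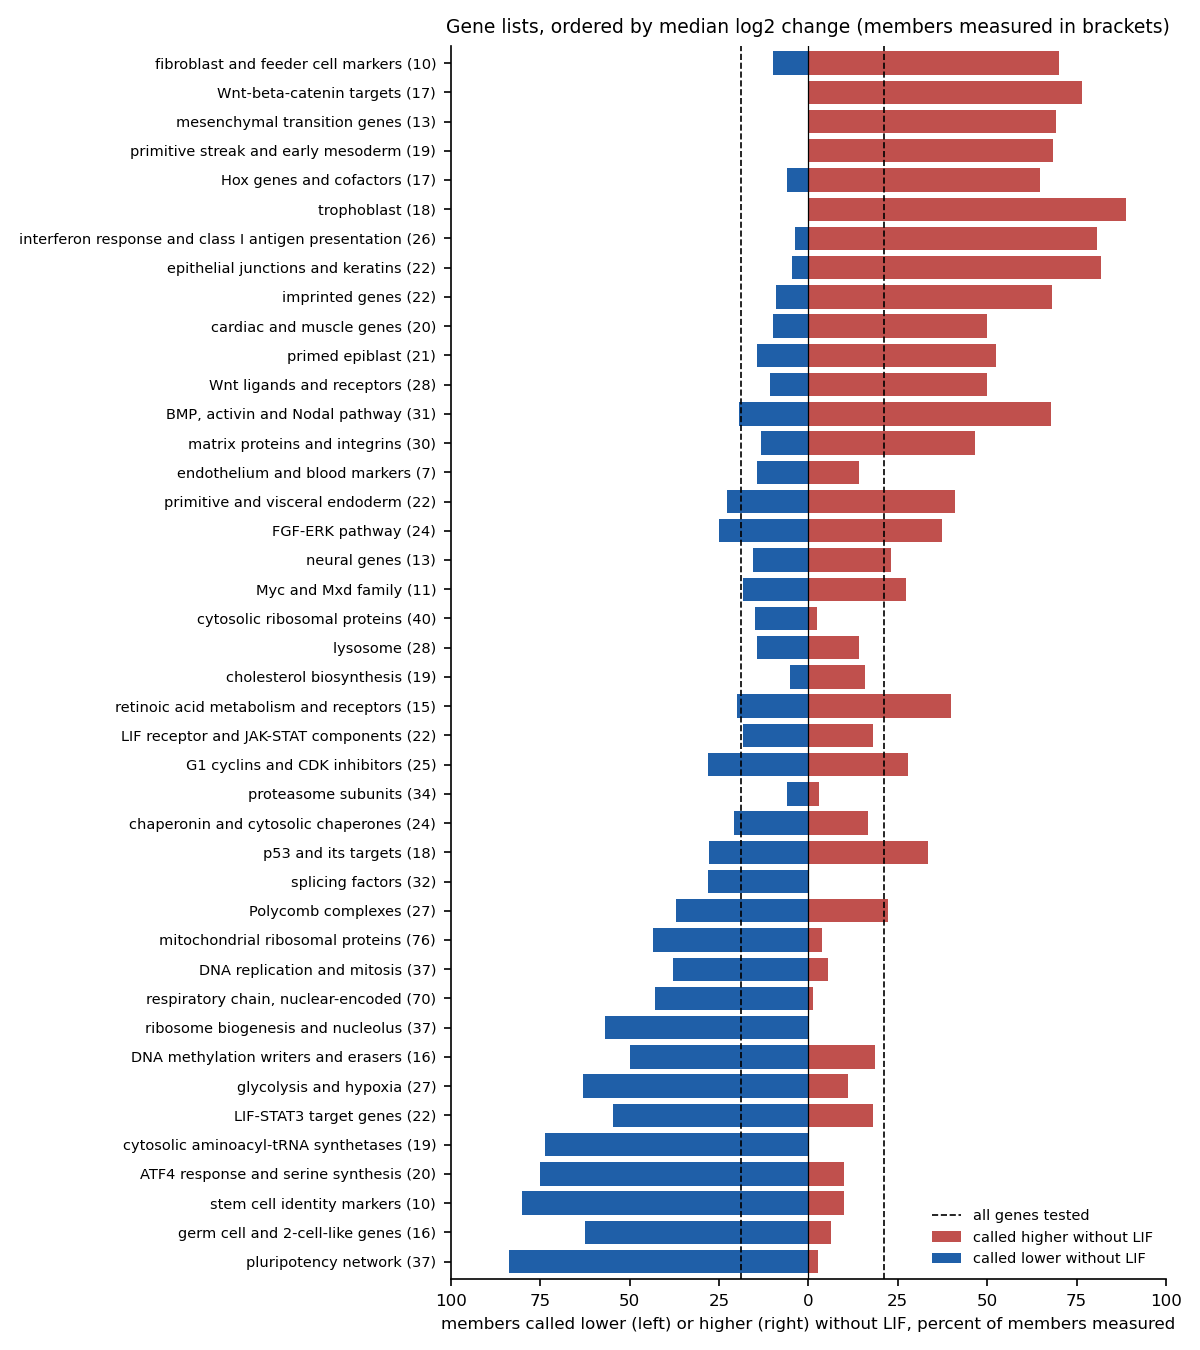
Percent of the measured members of each gene list called higher (right) and lower (left) in LIF-free against LIF arrays, ordered by the list's median log2 change, with dashed lines at the percent of all genes tested (21.2% higher, 18.7% lower). The pluripotency network has 31 of 37 members lower, and the trophoblast list has 16 of 18 higher.

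The average over lithium states was checked for opposite effects within it. The difference of the LIF effect between the states (interaction) was called by limma for 0 of 27022 probe sets, with 1604 (5.94%) at an unadjusted p under 0.05 and a lowest adjusted p of 0.806. For Klf4 the log2 change was -2.27 with lithium and -2.24 without. For Pou5f1 it was -1.52 and -1.44, and for Krt8 1.70 and 1.6, with and without lithium. The 95% interval of the difference between states was -0.37 to 0.31 for Klf4, -0.53 to 0.37 for Pou5f1 and -0.32 to 0.53 for Krt8. Over all probe sets the median interval of that difference reached 0.720 log2 units on either side, against 0.363 for the effect over both states, so a difference that misses the threshold does not show that the states act alike.

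Among genes with an informative symbol, the smallest interaction p by limma were those of Nrp1, Map3k12 and Gpr3, each with an adjusted p of 0.806. Nrp1, neuropilin-1, a co-receptor of VEGF and semaphorins, changed by 4.57 in log2 with lithium and 2.47 without. Map3k12, a kinase of the JNK pathway, changed by 0.95 with lithium and -0.25 without, and was not called over both states, although it was in the model with a mean per condition (adjusted p = 0.0372). Gpr3, a receptor that raises cyclic AMP, changed by 1.62 and -2.40, with and without lithium, at signals near the filter. Its opposite changes gave a log2 change over both states of -0.39, which was not called.

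**Figure D5:**
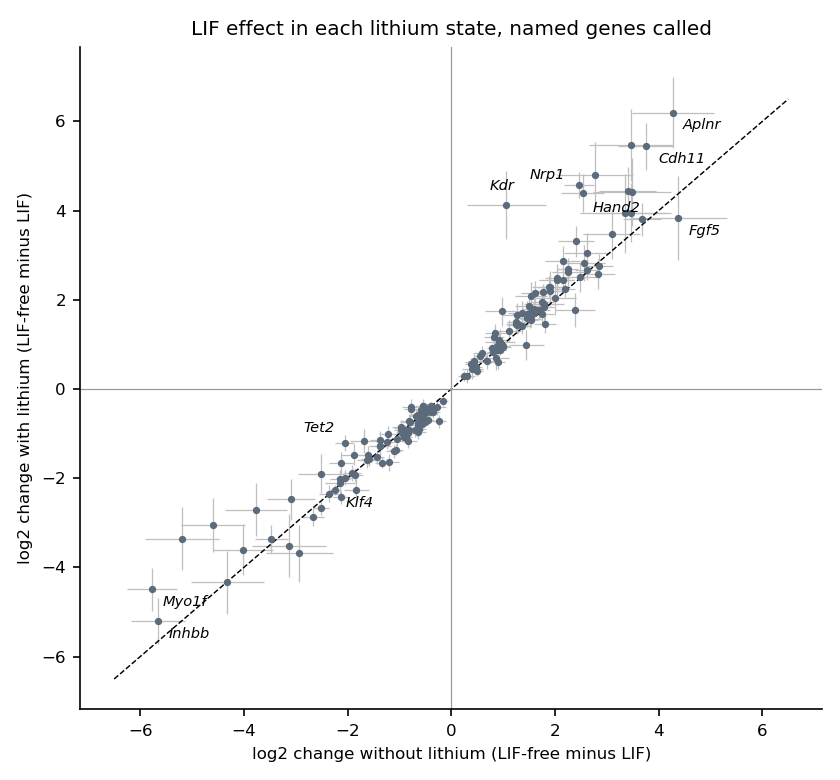
Log2 change of the named genes called over both states, with lithium (LIF-free plus lithium minus LIF plus lithium, vertical axis) against that without lithium (LIF-free minus LIF, horizontal axis), with standard errors as bars and a dashed line of equal change. Nrp1 lies at 4.57 with lithium and 2.47 without, and Klf4 at -2.27 and -2.24.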

How the data were processed

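RNA of D3 mouse embryonic stem cells was measured on 12 Affymetrix arrays, 3 for each of 4 conditions. What was deposited is 1 linear intensity per probe set and array, the MAS5 signal, per the submitters' processing notes. Its version, its settings and detection calls are not given in the sources used here. Every array's trimmed mean, without the lowest and highest 2% of signals, was 100, so arrays had been scaled to one target.

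Of 45101 probe sets 64 controls were left out. Intensities under 1 were set to 1 (0.146% of tested values) and log2 was taken. Probe sets above the 40th percentile of mean log2 signal were kept. limma 3.58.1 in R 4.3.3 fitted LIF, lithium and replicate number to all 12 arrays (lmFit, then eBayes with its trend option, leaving 7 residual degrees of freedom). Tests were two-sided, with Benjamini-Hochberg adjustment over 27022 probe sets. A model with a mean per condition and replicate number gave the effect in each lithium state and their difference. The fits were tested on simulated data. Plots were drawn with matplotlib 3.10.9 in Python 3.11.15.

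The platform's annotation gives 1 gene symbol for 34945 probe sets, several for 932 and none for 9160, and only the first are named. A RefSeq gene table held the gene ID of 34741 and changed 0 symbols. For each gene the kept probe set with the highest mean signal was used, preferring sets not marked as cross-hybridising. Among 6042 genes holding 2 or more kept sets, 55 had sets called in opposite directions, none of them named here.

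The members, the 42 gene lists and the naming rule were chosen with earlier results of these data known. Named were the 10 largest rises and falls among called genes with all 6 pairs in one direction, the 8 smallest p per direction under 2-fold at a mean signal of at least 200, up to 4 called members of each list with the smallest p, the 3 smallest interaction p, and Pou5f1, Sox2, Nanog, Zfp42, Klf4, Esrrb, Socs3, Stat3, Lifr, Il6st, Myc, Fgf5, Axin2 and Gata6 whatever their values. Not every named gene is printed. Symbols that name no known gene (Rik, LOC and Gm) were to be passed over, and among the largest and the small changes 0 were.

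Equal replicate numbers, which come from the labels, were checked by correlating residuals from the condition means. The correlation was 0.0317 to 0.542 over the 18 pairs of arrays with the same number, and 2 pairs, both of replicate 2, were under 0.1. The replicate number is part of the comparison's own model whatever this shows. Alternatives were quantile normalisation, median centring, a pseudocount of 16, no filter and one at the 60th percentile, no trend, array weights, a mean per condition, no replicate number, and leaving out each array and each replicate number. For the list medians only, the mean over a gene's kept probe sets was also used in place of the brightest one. Promoter windows are RefSeq's, build GRCm38.p6.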

Additional observations from a re-analysis of the deposited data

Results flagged for a closer look

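A group of 6 arrays was marked where its highest or lowest array lay farther from the nearest other, as a share of the group's whole range, than Dixon's 95% critical value. Of 382 groups examined, 11 were marked (2.88%), where chance marks about 1 in 20.

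In LIF-free arrays, Fgf5 had 54.6 in LIF-free plus lithium replicate 1 and 108 to 150.5 in the others. Nkx6-3 had 1.04 in LIF-free plus lithium replicate 2 and 6.83 to 12.7 in the others. Rdh10 had 159 in LIF-free plus lithium replicate 1 against 198 to 218 elsewhere, and Tapbp had 502 in the same array against 694 to 842. Mthfd2 was high at 165 in LIF-free plus lithium replicate 2, with the others at 120.4 to 131. Mrps16 was high at 733 in LIF-free replicate 3, with the others at 538 to 601. Kdr was low at 9.71 in LIF-free replicate 3, with the others at 36.7 to 62.1.

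In LIF arrays, Socs3 had 573 in LIF replicate 3 and 208.5 to 273 in the others. Tbx20 had 81.2 in LIF replicate 1 and 42.3 to 52.3 in the others. Hspa9 had 2004 in LIF replicate 1 and 2618 to 2961 in the others. Among quality measures, 0.433% of tested values were under the floor in LIF plus lithium replicate 3, and 0.0370% to 0.167% in the other LIF arrays.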

How the results depend on the processing

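With no replicate block in the model, 6955 probe sets were called (3872 higher, 3083 lower), 5260 became 2515 without lithium and 5938 became 3368 with lithium, and the calls of Lifr, Mga, Myc, Nsdhl, Psmc4 and Psmd7 ended. The block changed no other call of a named gene. Leaving out single arrays gave 7774 to 10079 calls (up to 5599 higher and 4480 lower, without LIF replicate 3), and leaving out a replicate number gave 5014 (2751 higher, 2263 lower, without replicate 2) to 8320. Median centring gave 6074 (2813 higher, 3261 lower). The other alternatives gave 7952 to 9963 calls. The interaction was called for 0 probe sets by limma under each of 4 settings, of which no block and both scalings were chosen after seeing the data.

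Of 181 named genes called, 165 stayed called in one direction under every alternative in which they were tested, and 0 reversed. The filter at the 60th percentile tested 160 of the 181, and the other 23 alternatives tested all. Reversed signs came from genes that were not called. Over the settings that leave out arrays, the log2 change ran from -0.41 (without replicate 1) to 0.011 (without replicate 3) for Stat3, and from -0.16 (without replicate 2) to 0.014 (without replicate 1) for Il6st. For Gpr3 it ran from -0.91 to 0.12 (without LIF replicate 3), and was 0.07 without replicate 3. LIF replicate 3 had the lowest array weight, 0.236, and without it, a setting chosen after seeing the data, 45 mitochondrial ribosomal proteins were lower. With all arrays 33 were, with no block 18 and after median centring 9. Gata6, not called, became called in 3 of the settings that leave out arrays, and Map3k12 with a mean per condition. The cause was not tested. The number of arrays limits the precision, and fold changes of dim genes rest on the floor.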
